A study of Mus musculus with 6 samples.

Results

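Transcripts of the exocytosis machinery, which carries secretory granules to the plasma membrane and fuses them with it, were examined in somatotropes and lactotropes, the growth hormone cells and prolactin cells of the anterior pituitary. The 47 members were chosen by name, as rows of the deposited table whose symbol is that of a SNARE, synaptotagmin, Rab GTPase or one of their partners, and they are 47 of the 22869 genes with a symbol. They fall into 10 subfamilies by role. The mice were untreated females of a CD1 x C57BL/6 hybrid, 6 to 8 weeks old, and their pituitary cells were separated by fluorescence-activated cell sorting (FACS). Each cell type had 3 libraries, numbered as biological replicates 1 to 3, and RNA was amplified before sequencing. The marker used for sorting, and how many mice a replicate held, are not stated in the labels. The p-values therefore measure only the spread between these libraries, and in sorted bulk RNA fewer cells of a type and less RNA per cell cannot be told apart. Levels are FPKM, fragment counts scaled to transcript length and to the mapped fragments of the library, a scale on which genes of different length can be compared.

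In regulated secretion, a SNARE protein on the granule (a VAMP) pairs with SNAREs of the target membrane (a syntaxin and SNAP-25 or SNAP-23), and the zipping of this complex drives fusion. Proteins of the Munc13 and CAPS families prime granules, and several synaptotagmins sense calcium. Rab3 and Rab27 with their effectors hold granules near the membrane, where RIM proteins and the exocyst act as tethers. Growth hormone and prolactin are both released from dense-core granules in this way.

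The hormone transcripts followed the labels. Gh ran from 19384 to 84909 FPKM in somatotropes and from 3954 to 7623 FPKM in lactotropes. Prl ran from 25171 to 195325 FPKM in lactotropes and from 8709 to 24481 FPKM in somatotropes. The rest of both marker lists was mixed. Ghrhr and Rbp4, and for lactotropes Drd2, Angpt1, Akr1c14 and Edil3, followed the labels in every pair. Pou1f1 and Neurod4, listed for somatotropes, and Nrg1, listed for lactotropes, went the other way in every pair. Dlk1 and Gal had no single direction. Among marker lists of other cells, the summed level of 11 leukocyte markers, led by Cd74 and C1qb, was 282 to 5798 FPKM in somatotropes and 830 to 12761 FPKM in lactotropes, higher in lactotropes in every pair of the same replicate number. The sum of 7 stem and folliculostellate markers, led by Mia1 and Rbpms, was 185 to 1641 FPKM in somatotropes and 101 to 575 FPKM in lactotropes, higher in somatotropes in every pair. Somatotrope 3 had the highest sums of several lists. The 6 corticotrope and melanotrope markers, led by Pomc and Tbx19, summed to 5778 FPKM, against 96.2 to 1214 in the other 5 libraries. The 5 gonadotrope markers, led by Cga and Lhb, summed to 1780 against 134 to 753 FPKM. The 6 neuron and posterior lobe markers, led by Oxt and Avp, summed to 201 against 20.2 to 42.2 FPKM. Within these lists Tbx19, Crhr1, Avpr1b, Nr5a1, Tubb3 and Syn1 were highest in lactotrope 1 and Rbfox3 in somatotrope 1. All their other markers were highest in somatotrope 3. The 4 erythroid markers, led by Hba-a1 and Hbb-b1, summed to 2147 and 1769 FPKM in somatotrope 3 and lactotrope 3 and to at most 164 FPKM elsewhere, the 3 thyrotrope markers, led by Tshb and Dio2, to 6.37 to 90.9 FPKM, and the 5 endothelial markers, led by Plvap and Emcn, to at most 3.27 FPKM, while of 8 lactotrope markers Agtr1b was listed at 0 in all 6 libraries. The share of tested genes with a value of 0 was 14.9% in lactotrope 3 and 0.232% to 2.95% elsewhere, so a 0 is given as listed and not as absence.

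Of the 47 members, 39 averaged 1 FPKM or more across the libraries and entered the test, and 16 averaged 10 FPKM or more. The 8 below the filter were Unc13d, Cplx1, Syt2, Syt14, Doc2b, Rims1, Sytl5 and Vgf. By mean over the 6 libraries the order began with Vamp8 at 78.4 FPKM, Snap25 at 67.0, Napa at 43.8, Vamp2 at 38.1 and Syt4 at 36.1 FPKM. No member passed the test between the cell types, as was true of 0 of 11642 genes (0% called), with limma on log2(FPKM + 1) and a Benjamini-Hochberg adjusted p of 0.05 as the threshold, or with the replicate number as a block. Without somatotrope 1, 3 genes of the whole table passed, and no member was among them. At an unadjusted p under 0.05, limma gave 0 members without the block, where somatotropes were higher for 0.507% of all genes and lactotropes for 0.455%. Without lactotrope 1 there were 4 members higher in somatotropes, where 3.75% of all genes were, and without somatotrope 1 there were 2 higher in lactotropes, where 1.03% of all genes were. With the block it gave 5 members higher in somatotropes, 12.8% of those tested against 7.17% of all genes, and 0 higher in lactotropes, against 3.75% of all genes.

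**Figure D1:**
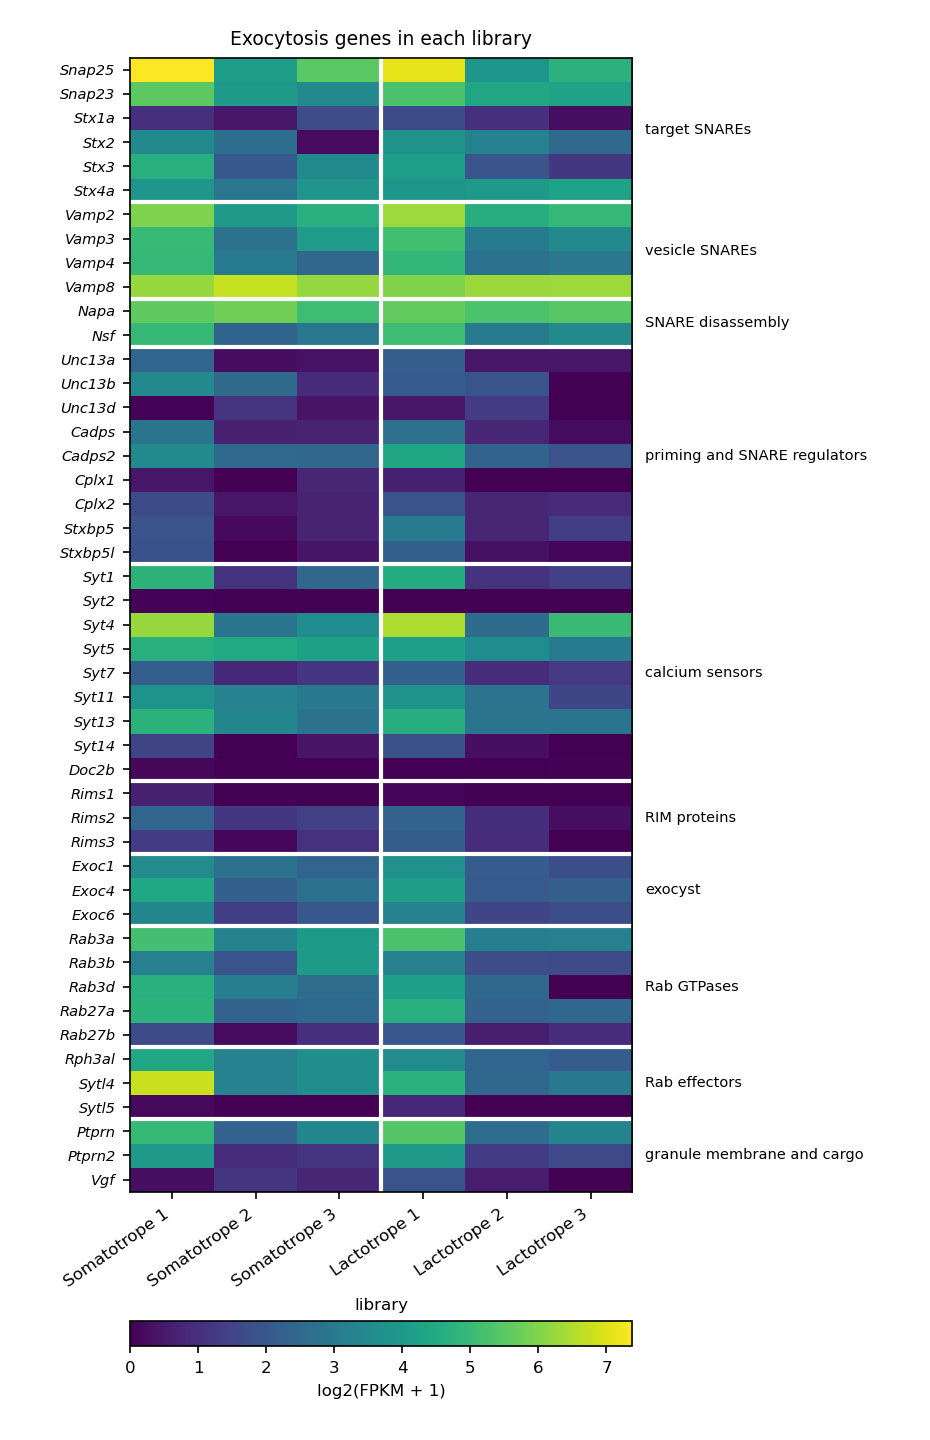
Levels of the 47 members (rows, grouped by subfamily) in the 6 libraries (columns), coloured by log2(FPKM + 1). Most rows are brightest in somatotrope 1 and lactotrope 1, while Vamp8 and Napa are near level across the libraries.

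Sytl4, Rph3al, Syt5, Rab3d and Unc13b are the 5 members with an unadjusted p under 0.05 in the block fit, and each was higher in somatotropes in all 3 pairs. The stem and folliculostellate markers summed higher in somatotropes in the same pairs (185 against 101, 1641 against 575 and 1015 against 139 FPKM), and the part of those cells in these differences was not tested. Promoter sequences are shown for 4 of them and for Stx4a, whose libraries were separated in the other direction. Syt5 was not among the 35 members with a matched promoter and is named only. The windows come from RefSeq on build GRCm38.p6 and run from 250 bases before to 50 bases after the start site, 5′ to 3′ on the strand of the gene. They are chrX:133981763-133982062 (minus strand) for Sytl4, chr11:75925842-75926141 (minus) for Rph3al, chr9:21918134-21918433 (minus) for Rab3d, chr4:43058703-43059002 (plus) for Unc13b and chr7:127841558-127841857 (plus) for Stx4a. Capitals mark the half-site of the cyclic AMP response element, TGACG on either strand.
Sytl4: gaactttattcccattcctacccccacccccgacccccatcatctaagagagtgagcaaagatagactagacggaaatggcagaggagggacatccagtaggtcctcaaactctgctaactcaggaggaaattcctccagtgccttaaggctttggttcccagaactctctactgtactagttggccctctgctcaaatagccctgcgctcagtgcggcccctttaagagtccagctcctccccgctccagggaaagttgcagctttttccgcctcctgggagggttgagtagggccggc
Rph3al: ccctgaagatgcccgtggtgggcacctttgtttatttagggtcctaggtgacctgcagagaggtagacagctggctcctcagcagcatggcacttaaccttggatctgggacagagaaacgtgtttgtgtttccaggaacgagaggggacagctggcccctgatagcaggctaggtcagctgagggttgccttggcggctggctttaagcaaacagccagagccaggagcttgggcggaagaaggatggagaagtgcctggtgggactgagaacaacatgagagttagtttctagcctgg
Rab3d: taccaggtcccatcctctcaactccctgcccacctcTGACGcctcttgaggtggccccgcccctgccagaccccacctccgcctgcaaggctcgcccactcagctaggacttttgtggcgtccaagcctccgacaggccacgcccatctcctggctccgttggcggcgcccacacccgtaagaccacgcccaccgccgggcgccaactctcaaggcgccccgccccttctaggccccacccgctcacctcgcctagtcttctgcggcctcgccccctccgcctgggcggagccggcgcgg
Unc13b: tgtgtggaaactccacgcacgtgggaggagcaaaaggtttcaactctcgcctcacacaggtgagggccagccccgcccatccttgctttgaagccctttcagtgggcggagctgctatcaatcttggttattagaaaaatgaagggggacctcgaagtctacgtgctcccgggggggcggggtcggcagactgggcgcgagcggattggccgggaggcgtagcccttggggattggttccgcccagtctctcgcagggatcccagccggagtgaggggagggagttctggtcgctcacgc
Stx4a: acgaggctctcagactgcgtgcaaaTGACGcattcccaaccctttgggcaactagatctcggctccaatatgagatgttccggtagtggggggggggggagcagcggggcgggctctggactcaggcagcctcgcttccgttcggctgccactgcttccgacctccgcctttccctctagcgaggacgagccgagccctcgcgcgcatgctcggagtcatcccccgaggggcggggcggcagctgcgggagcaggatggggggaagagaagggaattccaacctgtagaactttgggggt
The half-site was found once in the Rab3d window and once in the Stx4a window. Over all RefSeq promoters of this length, 20.8% of 32851 held it, and of 45 windows of the 35 matched members 12 did. The full palindromic element TGACGTCA, which contains the half-site on both strands, was in 1 member window, that of Napa, and in 1.79% of all promoters. The core of the site bound by the pituitary factor Pit-1, TATNCAT on either strand, was in 1 member window, that of Sytl5, and in 8.84% of all promoters. Median GC content was 60.3% in the member windows and 52.7% in all promoters, and these matches are letters in a window, not sites shown to be used.

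Among the Rab effectors, Sytl4 encodes granuphilin, which binds Rab27a and docks granules at the plasma membrane. It lies at positions 130470924 to 130516322 of chromosome X (minus strand) in the mm9 coordinates of the table. The 3 somatotrope libraries had 110, 8.61 and 11.8 FPKM, in order of replicate number, and the lactotrope libraries 25.4, 4.59 and 6.90 FPKM. Lactotrope 1 lay above somatotropes 2 and 3, so the groups overlapped, but the somatotrope library was the higher one of each pair. The means were 43.4 ± 57.5 and 12.3 ± 11.4 FPKM (SD, n = 3 each), a ratio of 3.53. The log2 difference, somatotrope minus lactotrope on the log2(FPKM + 1) scale, was 1.18 (SE 0.90, limma adjusted p = 1.00, and 0.335 with the block). It rested on somatotrope 1 in the fit without the block, where it was 0.08 without that library, and it was 0.73 without lactotrope 2 and 1.84 without either somatotrope 2 or lactotrope 1. By pair the differences were 2.07, 0.78 and 0.70, so replicates 2 and 3 showed the same direction at a smaller size.

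Rph3al encodes Noc2, an effector of Rab3 and Rab27 on dense-core granules, and lies at positions 75645660 to 75724528 of chromosome 11 (minus strand). Somatotropes 1 to 3 had 19.9, 8.71 and 11.7 FPKM and lactotropes 1 to 3 had 10.7, 4.34 and 3.42 FPKM. Only lactotrope 1 reached into the somatotrope range, above somatotrope 2. The means were 13.4 ± 5.79 and 6.16 ± 3.97 FPKM (SD, n = 3 each), and the log2 difference was 1.07 (SE 0.66, limma adjusted p = 1.00, and 0.338 with the block), with 0.83, 0.86 and 1.52 in pairs 1 to 3. The effector Sytl5, a relative of granuphilin, was listed at 0 in replicates 2 and 3 of both cell types and had 0.148 FPKM in somatotrope 1 and 0.764 FPKM in lactotrope 1.

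A ratio of a pair of genes within 1 library does not depend on how libraries are scaled. For Sytl4 over Rab27a the somatotrope libraries gave 4.14, 2.13 and 2.51 and the lactotrope libraries 1.07, 1.136 and 1.51, with no overlap. The ratio of Rph3al to Rab3a was 0.561, 0.985 and 0.761 in somatotropes and 0.285, 0.531 and 0.411 in lactotropes, again with no overlap. Against Rab27a the Rph3al ratios overlapped, at 0.751 to 2.497 in somatotropes and 0.454 to 1.07 in lactotropes. Of 6 ratios computed, the first 2 given here were separated, and those of Syt5 to Syt4, Snap25 to Snap23 and Stx3 to Stx4a overlapped too. The ratios were chosen after the values were seen, and an exact permutation test of 3 against 3 libraries cannot give a two-sided p below 0.1.

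**Figure D2:**
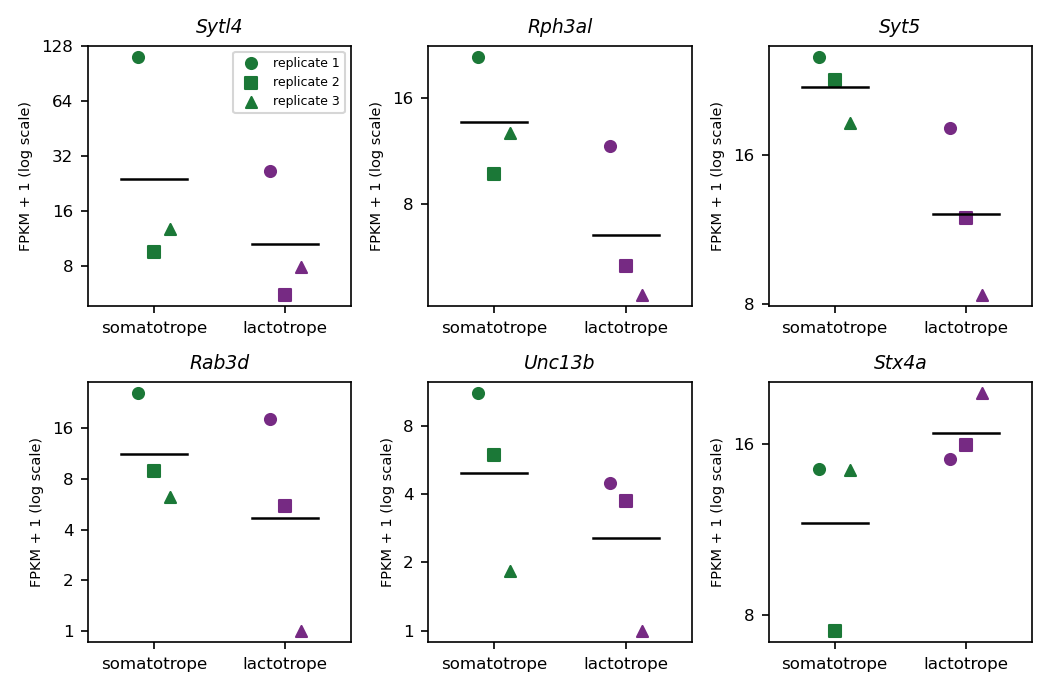
FPKM + 1 on a log axis, with a range of its own in each panel, for 6 members in somatotropes (green) and lactotropes (purple), with 1 symbol shape per replicate number. Black lines mark group means taken on the log2(FPKM + 1) scale. Syt5 and Stx4a are the panels in which the cell types do not overlap, in opposite directions.

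The Rab GTPases recruit such effectors to the granule. Rab3d, a Rab3 form found on granules of secretory cells, lies at positions 21711955 to 21722565 of chromosome 9 (minus strand). It had 24.7, 7.84 and 5.25 FPKM in somatotropes 1 to 3 and 17.1, 4.55 and 0.0046 FPKM in lactotropes 1 to 3. For Rab3d the log2 difference was 1.27 (SE 0.97, limma adjusted p = 1.00, and 0.397 with the block). By pair it was 0.51, 0.67 and 2.64, the widest in pair 3, where lactotrope 3 was near 0. In the fit without the block the difference was 0.17 without lactotrope 3, 0.67 without somatotrope 1 and 2.25 without lactotrope 1. With a pseudocount of 0.1 it was 2.33 and with one of 5 it was 0.63. Rab3a, the most abundant Rab3 form and the one typical of neurons, had 35.5, 8.84 and 15.4 FPKM in somatotropes and 37.6, 8.17 and 8.32 FPKM in lactotropes, with a log2 difference of 0.28 (SE 0.73). That sign reversed without somatotrope 1 (-0.23), without lactotrope 2 (-0.07) and without lactotrope 3 (-0.06).

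Rab3b had 8.26, 2.80 and 15.4 FPKM in somatotropes and 8.47, 2.37 and 2.22 FPKM in lactotropes. Its highest value was in somatotrope 3, the library with the highest sums of corticotrope, gonadotrope and posterior lobe markers, and the part of those cells in this value was not tested. Rab27a was nearly the same in both members of each pair, at 26.5 and 23.6 FPKM in pair 1, 4.05 and 4.05 FPKM in pair 2 and 4.70 and 4.58 FPKM in pair 3, somatotrope first. Rab27b was lower, at 0.172 to 2.98 FPKM, and made up 4.08% to 17.6% of the Rab27 sum. Within the Rab3 sum, Rab3a made up 42.8% to 78.9%, Rab3b 12.1% to 42.6%, and Rab3d 14.6% to 40.2% in 5 libraries and 0.0436% in lactotrope 3.

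Among the calcium sensors, Syt5 was the only member whose libraries were separated with somatotropes on the higher side. That is 2.56% of the 39 tested members, near the 2.51% of all genes. Syt5 encodes a synaptotagmin of dense-core granules and lies at positions 4491367 to 4498169 of chromosome 7 (minus strand). Somatotropes 1 to 3 had 24.1, 21.6 and 17.6 FPKM and lactotropes 1 to 3 had 17.1, 10.9 and 7.34 FPKM. The lowest somatotrope library therefore lay just above the highest lactotrope library. The means were 21.1 ± 3.32 and 11.8 ± 4.92 FPKM (SD, n = 3 each), a ratio of 1.79, and the log2 difference was 0.85 (SE 0.57, limma adjusted p = 1.00, and 0.382 with the block). Under median-ratio scaling it was 0.66 and after quantile normalization 0.64.

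Syt4, a synaptotagmin that lacks the usual calcium binding and is found on immature granules, was the most abundant of this subfamily by its mean. It had 74.1, 6.18 and 11.1 FPKM in somatotropes 1 to 3 and 88.3, 5.05 and 31.7 FPKM in lactotropes 1 to 3. Its pair differences were -0.25, 0.25 and -1.44 on the log2 scale and so lay in both directions, and the difference of -0.48 (SE 0.99) turned to 0.41 without lactotrope 1 and 0.21 without somatotrope 2. Syt1, the fast calcium sensor of neurons, had 26.1, 1.11 and 4.45 FPKM in somatotropes and 22.8, 1.11 and 1.63 FPKM in lactotropes. There are 2 further transcript rows that carry no symbol but match Syt1 by identifier. One gave 25.8, 2.49 and 6.47 FPKM in somatotropes and 22.6, 3.53 and 6.77 FPKM in lactotropes, and the other gave 26.1, 0.941 and 1.12 FPKM and 22.8, 0.510 and 1.28 FPKM. Somatotropes were higher in pair 1 in all 3 rows, while the direction in pairs 2 and 3 depends on which row is read.

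Syt13 and Syt11, which do not bind calcium in the usual way, had 5.73 to 25.8 FPKM and 1.92 to 12.8 FPKM over the 6 libraries. Syt7, a slow sensor of high calcium affinity, had 0.787 to 3.80 FPKM and differed little within pairs (-0.07, -0.13 and -0.07 on the log2 scale). Syt2, a further fast sensor, was listed at 0 in 5 libraries and at 0.0605 FPKM in somatotrope 1. Syt14 had at most 2.56 FPKM and Doc2b, a soluble calcium sensor, at most 0.113 FPKM. In the sum of the 8 synaptotagmins, Syt4 made up 44.1% and 51.7% in the replicate 1 libraries and Syt5 45.1% and 35.9% in the replicate 2 libraries. In replicate 3 the cell types split, with Syt5 at 37.2% and Syt4 at 23.4% in somatotrope 3, and Syt5 at 14.7% and Syt4 at 63.3% in lactotrope 3.

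The target membrane SNAREs were led by Snap25, the form used in neurons and endocrine cells. It had 166, 16.1 and 43.9 FPKM in somatotropes and 137, 13.7 and 25.6 FPKM in lactotropes, and was higher in somatotropes in each pair, with a log2 difference of 0.42 (SE 0.90, limma adjusted p = 1.00). In the fit without the block that sign reversed without somatotrope 1 (-0.45) and without lactotrope 2 (-0.26), with the other library of the pair kept. Snap23, the form found in most cell types, had 45.2, 14.8 and 10.3 FPKM in somatotropes and 37.7, 20.7 and 17.98 FPKM in lactotropes. Of the sum of both, Snap25 made up 78.6%, 52.1% and 80.9% in the somatotrope libraries and 78.4%, 39.8% and 58.7% in the lactotrope libraries. In lactotrope 2, which had the highest sum of leukocyte markers, Snap23 was thus the more abundant of the 2, and the part of leukocytes in this was not tested.

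Of the syntaxins, Stx4a was the only member separated with lactotropes on the higher side (2.56% of those tested, against 1.15% of all genes). It encodes syntaxin 4, a plasma membrane syntaxin found in most cells, at positions 134985322 to 134992479 of chromosome 7 (plus strand). Somatotropes 1 to 3 had 13.4, 6.52 and 13.4 FPKM and lactotropes 1 to 3 had 14.0, 14.9 and 18.6 FPKM. The separation was narrow, since lactotrope 1 lay just above somatotropes 1 and 3. The log2 difference was -0.53 (SE 0.58, limma adjusted p = 1.00, and 0.565 with the block), and it was -0.25 without replicate 2 and -0.21 without somatotrope 2. Leukocyte markers were higher in lactotropes in the same pairs, and their part in this difference was not tested.

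Stx3, a syntaxin of granule fusion in several secretory cells, had 23.7, 3.06 and 10.5 FPKM in somatotropes and 17.0, 2.88 and 1.29 FPKM in lactotropes. Its 3 transcript rows each had a higher mean in somatotropes, at 12.4, 6.87 and 6.70 FPKM against 7.06, 3.47 and 3.13 FPKM. In pair 2 the row used was higher in somatotropes (3.06 against 2.88 FPKM). The other rows were lower there, at 1.68 against 1.84 FPKM and 2.03 against 2.28 FPKM. Stx2, which acts at the plasma membrane too, had 10.7, 5.34 and 0.169 FPKM in somatotropes and 12.8, 8.54 and 4.69 FPKM in lactotropes, higher in lactotropes in every pair (log2 differences -0.24, -0.59 and -2.28). Stx1a, the partner of SNAP-25 at synapses, was low, at 0.392 to 2.37 FPKM in somatotropes and 0.200 to 2.16 FPKM in lactotropes. Stx1a made up 0.809% to 8.98% of the sum of the 4 syntaxins and Stx4a 27.6% to 75.0%.

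**Figure D3:**
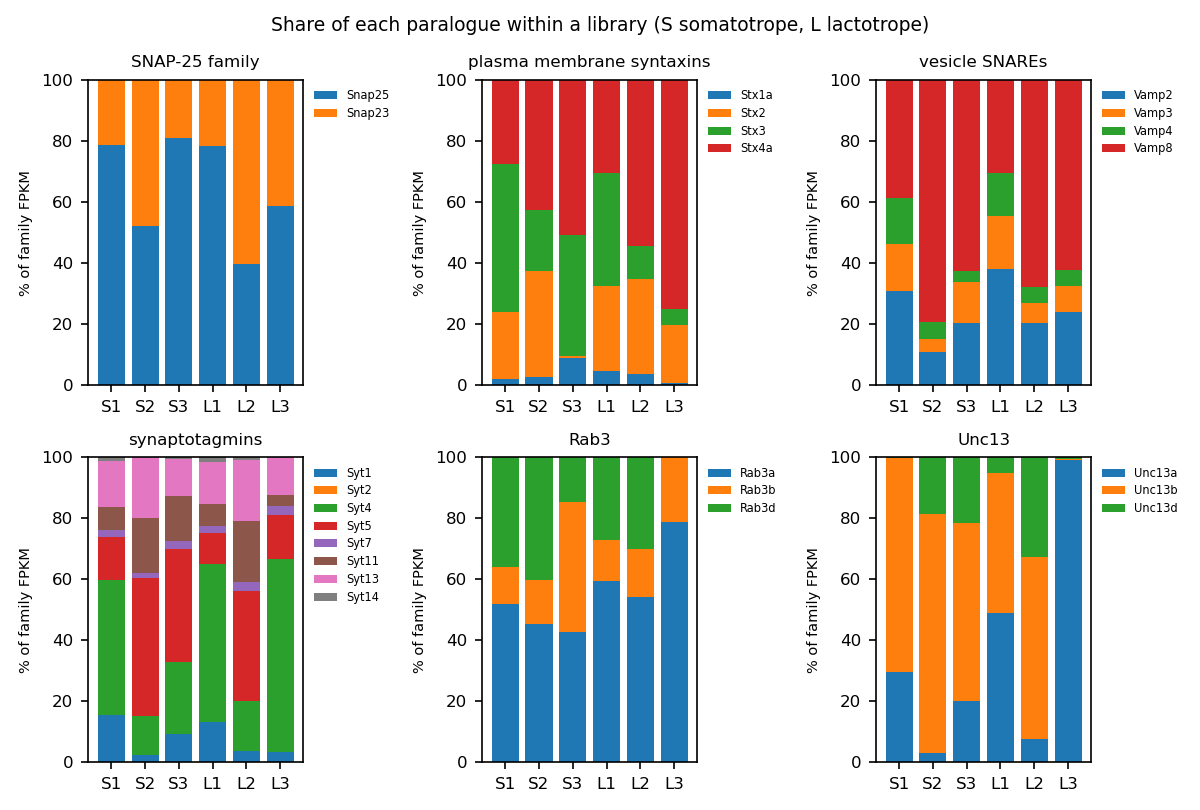
Share of each paralogue in the FPKM sum of its family (percent, stacked to 100) for 6 families in somatotropes 1 to 3 (S1 to S3) and lactotropes 1 to 3 (L1 to L3). Replicate 1 libraries resemble each other in most panels, and Vamp8 takes 62.4% to 79.2% of the vesicle SNARE sum in replicates 2 and 3 against 38.5% and 30.5% in replicate 1.

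Vamp8, a vesicle SNARE known from granule release in exocrine and blood cells, was the most abundant member by its mean over the 6 libraries and nearly level. It had 75.4, 106 and 73.3 FPKM in somatotropes and 61.7, 76.8 and 77.6 FPKM in lactotropes, and the log2 difference was 0.22 (SE 0.52, limma adjusted p = 1.00). It was 0.05 without somatotrope 2, 0.11 without lactotrope 1 and 0.01 under median-ratio scaling. Vamp2, the vesicle SNARE of synaptic vesicles and endocrine granules, had 60.5, 14.5 and 23.8 FPKM in somatotropes and 77.0, 23.1 and 29.7 FPKM in lactotropes. The lactotrope library was the higher one in each pair (log2 differences -0.34, -0.64 and -0.31). Vamp3, a widely expressed relative, had 5.81 to 34.7 FPKM and Vamp4, of the trans-Golgi network and immature granules, 4.45 to 29.5 FPKM, with pair differences in both directions for both genes.

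The pair that takes SNARE complexes apart behaved differently between replicates. Napa, which encodes the adaptor alpha-SNAP, had 47.1, 54.3 and 32.8 FPKM in somatotropes and 47.5, 38.0 and 43.1 FPKM in lactotropes, with a log2 difference of 0.03 (SE 0.52) that reversed under median-ratio scaling (-0.17), under quantile normalization (-0.16) and without somatotrope 1 (-0.02), somatotrope 2 (-0.12) or lactotrope 2 (-0.05). Nsf, the ATPase that Napa recruits, had 29.8, 4.19 and 6.48 FPKM in somatotropes and 32.9, 7.28 and 10.3 FPKM in lactotropes. It was higher in lactotropes in each pair.

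Among priming factors, Unc13b, which encodes Munc13-2, lies at positions 43071945 to 43277759 of chromosome 4 (plus strand). It had 10.1, 4.92 and 0.840 FPKM in somatotropes and 3.46, 2.74 and 0.0016 FPKM in lactotropes. Its log2 difference was 0.95 (SE 0.87, limma adjusted p = 1.00, and 0.422 with the block), with 1.31, 0.66 and 0.88 in pairs 1 to 3. It was 0.27 without lactotrope 3, 0.37 without somatotrope 1 and 1.66 without somatotrope 3, and 1.85 and 0.47 with pseudocounts of 0.1 and 5. Unc13a, the main Munc13 of neurons, had 3.73 and 4.30 FPKM in the replicate 1 libraries and 0.187 to 0.354 FPKM in the other 4. Unc13d, known from leukocyte granules, did not pass the filter and was highest in somatotrope 2 and lactotrope 2, at 1.16 and 1.51 FPKM, the libraries of each cell type with the highest sum of leukocyte markers, whose part in this was not tested.

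Cadps2, which encodes the priming factor CAPS2, had 10.6, 4.72 and 4.38 FPKM in somatotropes and 19.5, 4.09 and 2.73 FPKM in lactotropes, and its log2 difference of -0.04 (SE 0.77) had no fixed sign when libraries were left out (-0.52 without lactotrope 3, -0.39 without somatotrope 1, -0.30 without lactotrope 2, 0.12 and 0.16 without somatotropes 2 and 3, and 0.71 without lactotrope 1). Cadps, for CAPS1, had 0.183 to 6.18 FPKM. Stxbp5, which encodes tomosyn, a protein that holds syntaxin and SNAP-25 back from fusion, had 2.73, 0.143 and 0.679 FPKM in somatotropes and 7.05, 0.686 and 1.52 FPKM in lactotropes. Lactotropes were again higher in each pair (log2 differences -1.11, -0.56 and -0.58). Its relative Stxbp5l had 0 to 3.77 FPKM. The complexins, which clamp and assist the SNARE complex, were low, with Cplx2 at 0.367 to 2.78 FPKM and Cplx1 at no more than 0.718 FPKM.

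The RIM scaffolds were low as well. Rims2 had 4.29, 1.27 and 1.66 FPKM in somatotropes and 4.11, 0.959 and 0.207 FPKM in lactotropes, and the log2 difference of 0.47 (SE 0.76) came to 0.00 without lactotrope 3, 0.10 without somatotrope 1, 0.71 without somatotrope 2 and 1.04 without lactotrope 1, and to 0.98 and 0.15 with pseudocounts of 0.1 and 5. Rims3 had 0 to 3.54 FPKM and Rims1 at most 0.612 FPKM. The 3 exocyst subunits had 2.42 to 12.3 FPKM (Exoc1), 3.27 to 19.9 FPKM (Exoc4) and 1.61 to 9.40 FPKM (Exoc6). Exoc4 was higher in somatotropes in each pair, with a log2 difference of 0.30 (SE 0.79, limma adjusted p = 1.00). In the fit without the block that sign reversed without somatotrope 1 (-0.33) and without lactotrope 2 (-0.06), with the other library of the pair kept.

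Of the granule membrane and cargo genes, Ptprn, which encodes the granule protein IA-2, had 29.9, 3.98 and 9.46 FPKM in somatotropes and 42.0, 5.21 and 8.89 FPKM in lactotropes, with a log2 difference of -0.24 (SE 0.84) that turned to 0.38 without somatotrope 2 and to 0.58 without lactotrope 1. Ptprn2, its relative, had 14.8, 0.925 and 1.138 FPKM in somatotropes and 14.9, 1.41 and 2.12 FPKM in lactotropes. Vgf, a secreted granule protein, was below the filter, at 0.228 to 1.16 FPKM in somatotropes and 0 to 2.80 FPKM in lactotropes.

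**Figure D4:**
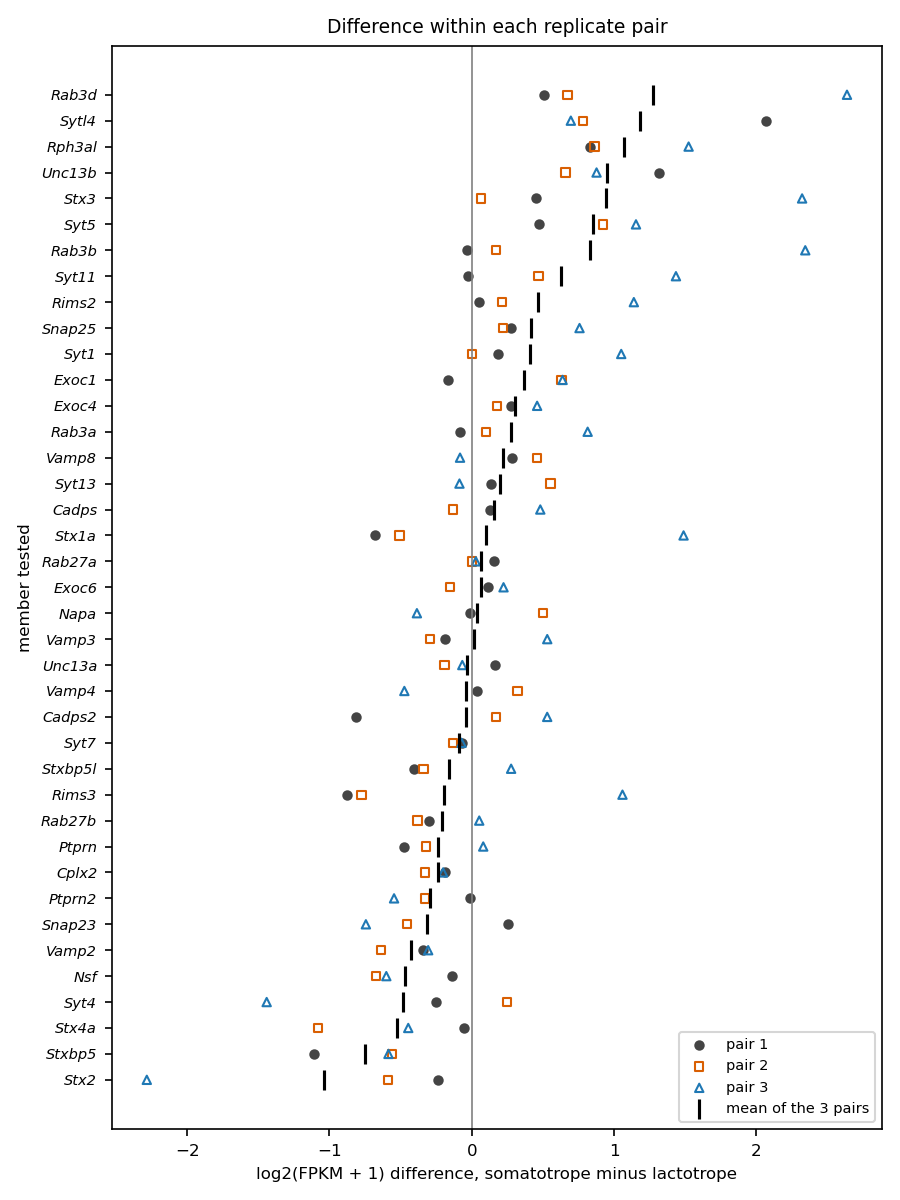
Difference in log2(FPKM + 1), somatotrope minus lactotrope, within each pair of the same replicate number for the 39 tested members, ordered by the mean of the 3 pairs (vertical bar). The symbols of 11 members lie to the right of 0 in all 3 pairs and those of 8 to the left, and pair 3 gives most of the widest differences.

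In all 3 pairs, 11 of 39 tested members (28.2%) were higher in somatotropes, against 22.9% of all genes, and 8 (20.5%) were higher in lactotropes, against 11.2% of all genes. The balance turned with the scaling: under median-ratio scaling 8 were higher in somatotropes and 10 in lactotropes (16.6% and 16% of all genes), and after quantile normalization 9 and 10 (16.6% and 16.4%). Before such scaling the 11 were Snap25, Stx3, Unc13b, Syt1, Syt5, Rims2, Exoc4, Rab3d, Rab27a, Rph3al and Sytl4, and the 8 were Stx2, Stx4a, Vamp2, Nsf, Cplx2, Stxbp5, Syt7 and Ptprn2. In pair 2 the difference of Syt1 and that of Rab27a were both 0.00 after rounding, so those places among the 11 are near ties. The places of Syt1 and Stx3 also depend on which of their transcript rows is read. The median log2 difference was 0.06 over the tested members and 0.18 over all tested genes. By pair the members' median was -0.01, 0.00 and 0.28, beside 0.00, 0.12 and 0.36 for all genes, so most of the shift in pair 3 was shared by the whole table. After median-ratio scaling the members' median was -0.11 and that of all genes 0.04. It moved to -0.49 without somatotrope 1 and to 0.64 without lactotrope 1, while the median of all genes moved to -0.12 and 0.58. Separated groups were counted for 1 member in each direction in all 6 libraries, for 12 higher in somatotropes without lactotrope 1 (20.6% of all genes) and for 7 higher in lactotropes without somatotrope 1 (7.76% of all genes).

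A further 79 exocytosis genes outside the 47 were read from a list of their own, of which 60 were tested and 0 passed. In all 3 pairs 15 were higher in somatotropes and 10 in lactotropes (25% and 16.7%, against the same 22.9% and 11.2% of all genes), and the median log2 difference was -0.02. At an unadjusted p under 0.05 in the block fit, 4 were higher in somatotropes (6.67%, against 7.17% of all genes) and 3 in lactotropes (5%, against 3.75%). The libraries did not overlap for 2 genes of this list, both higher in somatotropes (3.33% of those tested, against 2.51% of all genes). In the other direction there were 0, against 1.15% of all genes. Syt12, a synaptotagmin without calcium binding, had 2.00, 5.61 and 2.64 FPKM in somatotropes and 0.329, 1.11 and a listed 0 FPKM in lactotropes (log2 difference 1.56, SE 0.68, limma adjusted p = 1.00, and 0.234 with the block). Stx18, a syntaxin of the endoplasmic reticulum, had 33.0, 46.98 and 36.6 FPKM in somatotropes and 19.6, 22.2 and 2.95 FPKM in lactotropes (log2 difference 1.67, SE 0.70, limma adjusted p = 1.00, and 0.332 with the block).

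Differences between replicate numbers were larger for most members than differences between cell types. Both replicate 1 libraries lay above all other 4 libraries for 31 of 39 tested members, 79.5%, against 57.7% of all tested genes, and below them for 0, against 4.49%. The mean of the replicate 1 libraries was 3.96 times that of the other 4 at the median over the tested members and 2.15 times over all tested genes. The genes with the highest ratios were Stxbp5l at 18.6, Unc13a at 13.6, Syt1 at 11.8, Cadps at 10.8 and Ptprn2 at 10.6. Snap25, Syt4 and Sytl4 had 6.10, 6.01 and 8.47. The Syt1 ratio depends on the row read. The row used had 1.11 to 4.45 FPKM in replicates 2 and 3, and a row without a symbol had 2.49 to 6.77 FPKM.

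The 8 tested members outside that pattern were Stx1a, Stx4a, Vamp8, Napa, Unc13b, Syt5, Rab3b and Rph3al. Vamp8 had the lowest ratio at 0.822, and Stx4a, Napa, Syt5 and Rab3b had 1.03, 1.12, 1.44 and 1.47. The sum of leukocyte markers was 282 and 830 FPKM in the replicate 1 libraries and 3019 to 12761 FPKM in the other 4, and the part of such cells in the level of these members was not tested. Since same-numbered libraries shared these shifts, the SE of a member's log2 difference had a median of 0.77 without the block and 0.33 with it.

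**Figure D5:**
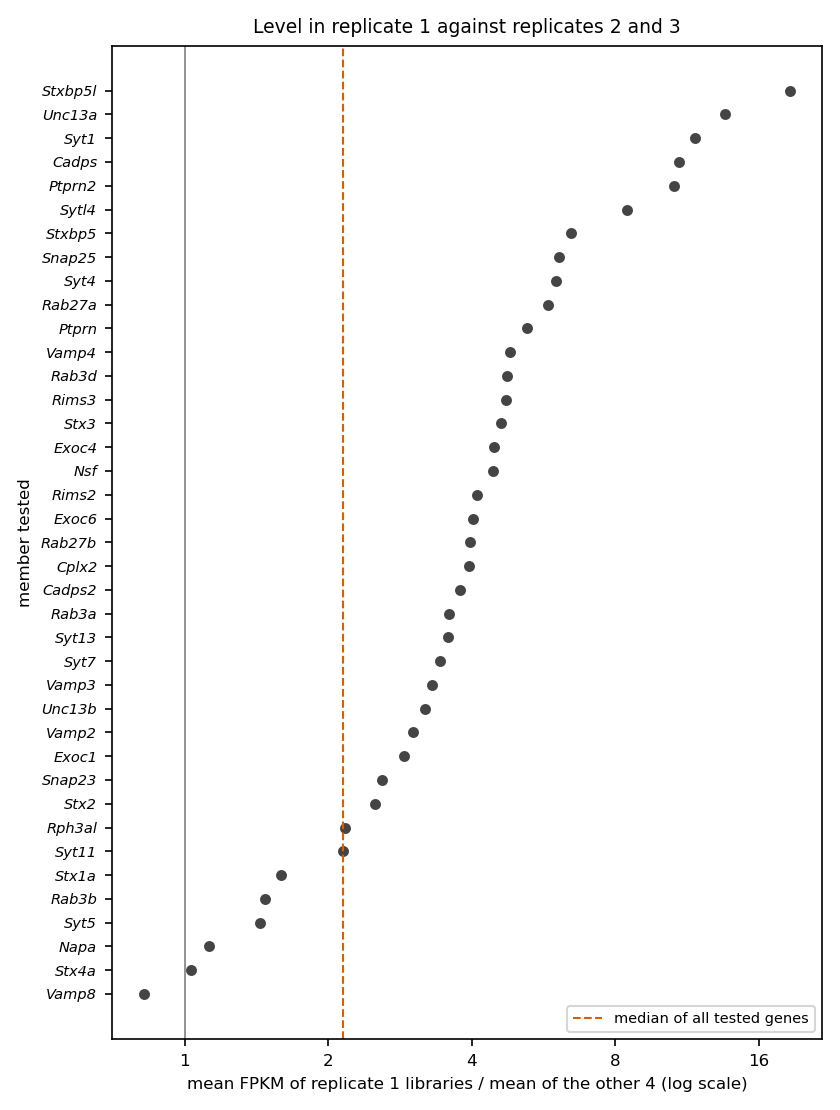
Mean FPKM of somatotrope 1 and lactotrope 1 divided by the mean of the other 4 libraries, on a log axis, for the 39 tested members in order, with the median of all tested genes (2.15) as a dashed line. Vamp8 is the one member left of 1, and Stxbp5l, Unc13a, Syt1, Cadps and Ptprn2 lie above 10.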

How the data were processed

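RNA of 3 somatotrope and 3 lactotrope libraries was sequenced after FACS and amplification, per the labels' protocols. The authors deposited 1 table of FPKM values over 30399 transcript rows, and bcl2fastq 2.17.1.14, TopHat, edgeR and mm9 are named in the submitters' processing notes. How fragments were counted is not named there. FPKM depends on the library's total, so very abundant transcripts lower all others, and no count test was run. Low values of single-exon genes came to a whole number of fragments, within 0.1, for 99.7%, 99.2% and 99.5% of 602, 353 and 204 values in somatotrope 1, lactotrope 1 and lactotrope 2, which puts their depth at 29.3, 17.6 and 70.3 times 1000000 fragments. In the other 3 the values were not whole (24.7% to 66.3%), and depth is unknown.

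The 889 rows without a symbol were left out, and each of 22869 genes took its row with the highest mean; 10 members had several rows. Genes averaging 1 FPKM or more (11642) were tested as log2(FPKM + 1) in limma (version 3.58.1, R version 4.3.3) without a block, with the prior variance following the mean level, and with Benjamini-Hochberg adjustment over all of them. Same-numbered libraries deviated together (0.763, 0.613 and 0.341 as correlations of the deviations from group means in pairs 1, 2 and 3), so the replicate numbers, which come from the titles, were also used as a block. The code was tested on simulated data.

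Members, lists and tests were chosen with earlier results of these data known. Log2 differences are given for tested members with separated groups, with an unadjusted p under 0.05 in either fit, or most abundant in their subfamily; other values describe levels or pairs. Marker lists named are those of leukocytes, stem and folliculostellate cells, erythroid, endothelial, neuron and posterior lobe, and other pituitary cells. Alternatives were other pseudocounts (0.1 and 5), filters, scalings, weights, the block, summed rows and left-out libraries. Motif shares come from RefSeq promoters on GRCm38.p6, matched by symbol or synonym for 35 of 47 members. Protein sequences were not used here.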

Additional observations from a re-analysis of the deposited data

How the results depend on the processing

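The count of members called by adjusted p was 0 under all 20 alternatives, with smallest adjusted p of 0.335 with the replicate block and 0.139 with the block and array weights, so the block changed no call. Over all genes the calls numbered 0 with and without the block, 9 with array weights, 43 with both and 3 without somatotrope 1. At an unadjusted p under 0.05 the members higher in somatotropes numbered 0 without the block, 5 with it, 3 with array weights and 5 with both, beside 0.507%, 7.17%, 5.64% and 6.54% of all genes, and 0 to 4 with libraries left out, the highest without lactotrope 1 (3.75% of all genes). Those higher in lactotropes numbered 0, 0, 1 and 1, beside 0.455%, 3.75%, 5.23% and 4.97% of all genes, and 0 to 2 with libraries left out, the highest without somatotrope 1 (1.03%). The array weights without the block stopped short of their convergence tolerance. Separated members higher in somatotropes numbered 2 under median-ratio scaling, 2 under quantile normalization and 1 to 12 with libraries left out (2.83%, 2.99% and 2.89% to 24.7% of all genes), and those higher in lactotropes 1 to 7 (2.1% to 10.2%). Members higher in lactotropes in all pairs numbered 5 at a mean of at least 5 FPKM, where 27 members were tested (10.7% of all genes), and 10 to 14 with a replicate number left out, where fewer pairs need to agree (17.7% to 24%). The members' median was -0.1085 under median-ratio scaling and -0.4894 to 0.6364 with libraries left out.

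The sign of Cadps2 reversed with pseudocount 0.1 (0.0007078), array weights (0.1762) and summed rows (0.04923), that of Napa under median-ratio scaling (-0.1701) and quantile normalization (-0.1562), and those of Syt4 and Ptprn under array weights (0.4752 and 0.1238). With libraries left out the differences ranged from -0.4452 to 1.352 for Snap25, -0.1989 to 0.245 for Napa, -0.5229 to 0.7055 for Cadps2, -1.534 to 0.4078 for Syt4, -0.3297 to 0.9529 for Exoc4, -0.2286 to 0.9656 for Rab3a and -0.9374 to 0.58 for Ptprn. The differences of Sytl4, Rph3al, Syt5, Rab3d, Unc13b, Rims2, Vamp8 and Stx4a kept their sign wherever they were computed, but their size ranged over 0.08 to 1.84, 0.74 to 1.497, 0.58 to 1.137, 0.17 to 2.33, 0.27 to 1.85, 0.00 to 1.04, 0.01 to 0.37 and -0.76 to -0.21 in that order, and Rims2 and Unc13b were below the filter at 5 FPKM. The cause was not tested for any of these changes. Adjusted p over the alternatives ran from 0.139 to 1 for Sytl4, 0.24 to 1 for Rph3al, 0.316 to 1 for Syt5, 0.396 to 1 for Rab3d, 0.299 to 1 for Unc13b and 0.538 to 1 for Stx4a. Trend, weights and block do not enter counts of separated groups or pairs, and leaving out 1 library leaves no full set of pairs, so these combinations give no value. Depth is unknown for 3 libraries. Rab3d and Unc13b were near 0 in lactotrope 3, and without it their differences in the fit without the block were 0.17 and 0.27. By pair on the log2(FPKM + 1) scale they were 0.51, 0.67 and 2.64 for Rab3d and 1.31, 0.66 and 0.88 for Unc13b. On that scale pair 3 stood out for Rab3d only. Plain FPKM ratios by pair, somatotrope over lactotrope, were 1.44, 1.72 and 1141 for Rab3d and 2.91, 1.79 and 525 for Unc13b. As ratios, pair 3 was thus the widest for both genes.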
